A study of Mus musculus with 5 samples.

Results

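Cells of fetal intestinal organoids of wild-type genotype were compared with cells of small intestinal organoids of wild-type genotype, in 1 library each. Organoids are epithelial cultures that grow in 3 dimensions in a gel. Wells of each plate were kept when they held at least 1000 unique molecular identifiers (UMIs, each counting 1 captured transcript) outside the spike-ins and at most 2% of UMIs from Kcnq1ot1, a long non-coding RNA. This left 369 fetal cells and 280 small intestinal cells, 649 in all, of 1552 kept by the same rule in the whole series and of 1920 wells in its tables.

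The fetal library carries the source Fetal intestine and the genotype WT, and it is called fetal below. The small intestinal library of genotype WT is called SI WT. The labels give no embryonic stage, no age, strain or sex and no count of mice or lines, and they do not call the small intestinal organoids adult. Per the labels, one growth protocol covers all samples, with Egf, R-spondin and Noggin in the medium, so both cultures are described as grown alike. Cells were dissociated with TrypLE, placed singly in 384-well plates by a cell sorter and read by SORT-seq, in which barcoded primers in the wells tag each transcript near its 3' end. Levels in 3 further small intestinal libraries are given beside some genes, namely those of genotype Lkb1 -/- marked Cys and Bud, marks that the labels do not explain, and that of genotype Lkb1 +/- (het). Lkb1 is the kinase encoded by Stk11. Each group was 1 plate. No difference between the groups has a replicate check, no test was possible, and the age of the tissue, the line, its sex and the plate cannot be told apart.

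The epithelium of the small intestine is renewed from Lgr5-marked stem cells in crypts under WNT signalling, and their progeny become absorptive enterocytes or secretory goblet, Paneth, enteroendocrine and tuft cells. Organoids of this epithelium bud and keep these lineages. Fetal intestinal epithelium in culture is known to grow as undifferentiated spheres that use WNT and the Lgr5 program little and carry genes such as Ly6a (Sca-1) and Gja1. Many of the same genes return when the adult epithelium is injured, and YAP and TAZ, coactivators that act through TEAD factors, are linked to that state.

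Fetal cells had a median of 14649 UMIs from 4543 genes and SI WT cells a median of 13708.5 UMIs from 4165.5 genes. The limit on Kcnq1ot1 took 2 of 371 fetal wells and 22 of 302 SI WT wells. The kept cells held 5854763 UMIs in the fetal and 3962280 in the SI WT library, and no cell carried more than 1.42% of the fetal or 1.18% of the SI WT total. The largest cell of the Cys library held 452137 UMIs, 9.18% of that library. Cys levels below are of the summed library, and how far this cell sets them was not tested. All 5 tables use the same 384 well numbers by design, so a shared number does not mark a shared cell. Shares of cells with a UMI are from cells thinned to 3000 UMIs, which left out 2 fetal and 38 SI WT cells. By the limit that 3 counts would give, a share of 0 allows up to 0.817% of the 367 fetal cells or 1.24% of the 242 SI WT cells, and the upper bound of the exact 95% interval is 1.00% for fetal and 1.51% for SI WT cells, counting error only.

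Of the measured genes, 33.7% differed at least 2-fold between the libraries. Levels are in CPM, the usual unit in which a gene's UMIs are scaled to the total of its library, and a gene was measured with at least 50 UMIs over both libraries. Of 10479 measured genes, 2039 (19.5%) were at least 2-fold higher in fetal cells and 1497 (14.3%) at least 2-fold lower. At least 8-fold differences were found for 752 genes higher and 375 genes lower in fetal cells. Against the same SI WT library, the het library had 2.51% of its measured genes higher and 2.5% lower (5.01% either way), and the Bud library had 1.61% higher and 2.47% lower (4.08%). The fetal and SI WT cells also differed in UMIs per spike-in UMI, with 37.9 in fetal and 23.5 in SI WT cells. Scaled to the spike-ins, 84.9% of the called genes were higher and 15.1% lower in fetal cells, against 57.7% and 42.3% by CPM, and the median of all genes shifted by 0.55 on the log2 scale. The differences below are by CPM and so relative to the other genes of the library, and no named gene called by CPM changed direction by spike-in scaling. Genes that were lower by CPM but within 2-fold could turn, as Epcam, B2m, Mki67 and Stk11 did. Counts of list members are read against the shares of 19.5% higher and 14.3% lower.

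**Figure D1:**
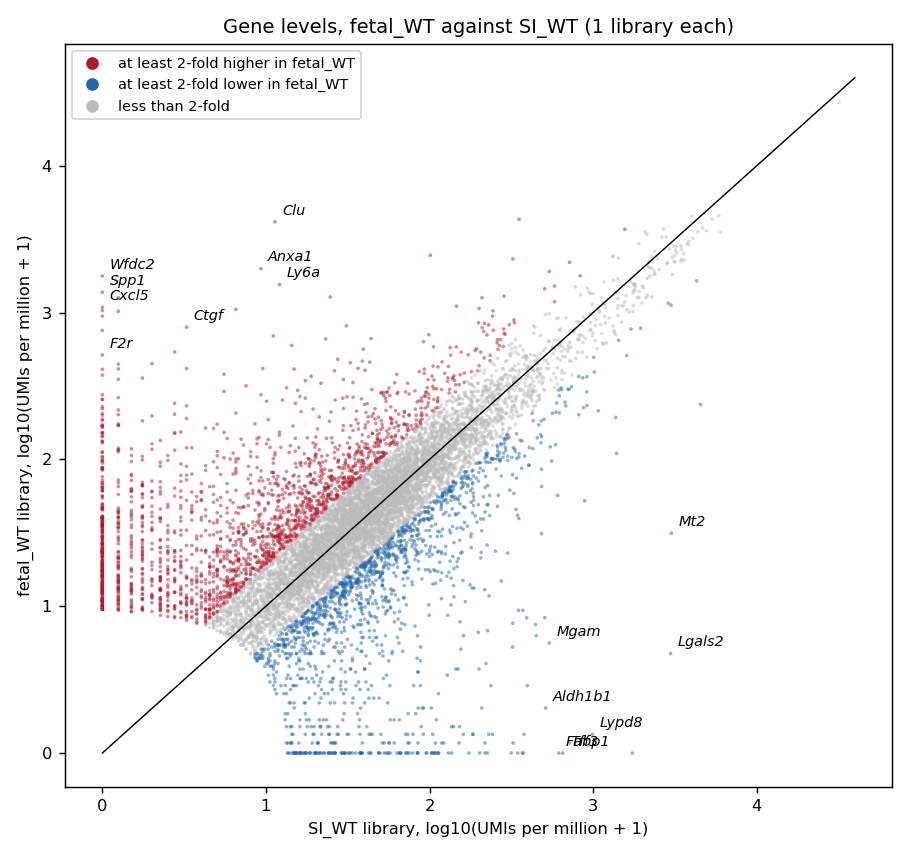
Level of each measured gene in the fetal library (vertical axis) and the SI WT library (horizontal axis), both as log10 of CPM plus 1, with 1 point a gene and the line at equal levels. Of 10479 genes, 2039 are coloured as at least 2-fold higher in the fetal library and 1497 as at least 2-fold lower, and some of the genes with the largest ratios are named.

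Many genes were present in one library and absent in the other. There were 59 genes with no UMI in SI WT cells and at least 50 CPM in fetal cells, and 54 of them had at most 3 UMIs in the het and in the Bud library. In the other direction, 42 genes had no UMI in fetal cells and at least 50 CPM in SI WT cells, of which 38 also reached 50 CPM in the het library. Genes seen in under 10% of the cells of the higher library aside, the largest log2 ratios belonged in order to Clu, Wfdc2, Spp1, Igfbp7, Cxcl5, Anxa1, Msln, Ankrd1, Ppbp, Fn1, Ly6a, Anxa3, Ctgf, F2r and Myof. They are mostly secreted or surface proteins. Among the genes furthest below SI WT were Lgals2, Lypd8, Mt2, Pigr, Tff3, Fabp1, Aldh1b1, Muc13, Tm4sf5, Mgam, Adh1, Sis, Ces2e and Cyp2c65, many of them products of mature enterocytes.

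Both libraries held epithelial cells. Of 9 general epithelial markers, all measured, Krt19 was higher and Esrp1 lower in fetal cells and the other 7 were within 2-fold, with a median log2 ratio of 0.05. Epcam, a surface protein of epithelia, had 465 CPM in fetal cells and 731 CPM in SI WT cells, a log2 ratio of -0.64 that was 0.04 by spike-in scaling, and Krt18, a keratin of simple epithelia, had 1498 CPM in fetal cells and 779 CPM in SI WT cells. Markers of other cell types were at or near 0 in both. The summed level of 11 mesenchymal markers was 46.1 CPM in fetal cells and 2.02 CPM in SI WT cells. Almost all of the fetal sum came from 1 gene, the transcription factor Twist1, while Col1a2, Col3a1, Pdgfra, Dcn and Lum, which define fibroblasts, had no UMI in fetal cells. Immune markers summed to 3.42 CPM in fetal and 3.28 CPM in SI WT cells, and endothelial markers to 0.683 CPM in fetal and 0.252 CPM in SI WT cells. Neural and glial markers summed to 8.03 CPM in fetal and 16.7 CPM in SI WT cells. Erythroid markers summed to 0.171 CPM in fetal cells and to 0 in SI WT cells.

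Intestinal identity genes, mostly transcription factors, were lower in fetal cells in 11 of 18 measured members, and 1 was higher and 6 were within 2-fold. The median log2 ratio was -1.21, and the list summed to 1100.3 CPM in fetal cells and 2966 CPM in SI WT cells. Per thinned cell, a median of 2 members was detected in fetal cells and 5 in SI WT cells, and 4.9% of fetal cells and no SI WT cell held none. Cdx1, a homeobox factor of intestine, had 1 UMI in fetal cells and 861 in SI WT cells. It had 1.62 CPM in the Cys, 266 in the Bud, 245 in the het and 217 CPM in the SI WT library. Its relative Cdx2, which specifies hindgut and intestine, had 5.81 CPM in the fetal library, 9.94 in the Cys, 42.7 in the Bud, 36.5 in the het and 44.9 CPM in the SI WT library. Gata4, a factor of the proximal small intestine, had 0 CPM in the fetal library, 39.4 in the Cys, 116 in the Bud, 153 in the het and 173 CPM in the SI WT library. Isx, an intestine-specific homeobox factor, had no UMI in fetal cells and 106 CPM in SI WT cells. It had 0.609 CPM in the Cys, 79.8 in the Bud and 115 in the het library. The fetal and Cys libraries were the low ones for Cdx1, Cdx2 and Isx, and the fetal library had neither Gata4 nor Isx. Hnf4a, a nuclear receptor that drives enterocyte genes, was 7.51-fold lower (95% interval 6.72 to 8.4, counting error only), with 64.4 CPM in the fetal library, 141 in the Cys, 443 in the Bud, 514 in the het and 483 CPM in the SI WT library. It was found in 16.3% of thinned fetal cells and 69.8% of thinned SI WT cells (52.8% and 92.1% unthinned), so it was lower and not absent. Cdh17, the liver-intestine cadherin, was 10.9-fold lower with 55.9 CPM in fetal cells and 607 CPM in SI WT cells.

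Genes that mark position along the gut were also low. Of 6 measured position markers, 4 were lower (Gata4, Cdx2, Osr2 and Prlr) and 1 higher, with a median log2 ratio of -1.95. The higher one was Onecut2, a cut-homeobox factor, with 789 CPM in fetal cells and 209 CPM in SI WT cells. Of 19 Hox genes in the tables, none was measured, and 17 had no UMI in fetal cells. Their summed count was 2 UMIs in fetal cells and 126 UMIs in SI WT cells, from the smaller library. The markers thus go in part against the word intestine in the label: the cells were epithelial, but Cdx1, Gata4, Isx and the Hox genes were at or near 0. Other genes of intestinal epithelium were lower but present, with Hnf4a, Cdh17 and Vil1 at 64.4, 55.9 and 114 CPM in fetal cells and 483, 607 and 292 CPM in SI WT cells. Cdx1 and Isx were also near 0 in the Cys library, which is small intestinal by its label, so this was not particular to fetal cells. Hox genes were low in SI WT cells too, with a sum of 31.8 CPM against 0.342 CPM in fetal cells. These markers do not bear on the word fetal, and both words, fetal and intestine, are taken from the label only.

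The cultures also differed in sex-linked genes. Xist, the RNA of the inactive X chromosome, had 1496 UMIs in fetal cells and 0 in SI WT cells. Ddx3y, a gene of the Y chromosome, had 0 CPM in fetal cells and 65.9 CPM in SI WT cells, and Eif2s3y had 0 CPM in fetal cells and 72.7 CPM in SI WT cells. The 4 Y-linked genes measured had no UMI in any fetal cell. The other 308 measured genes of the X chromosome had a median log2 ratio of 0.23, with 74 higher and 20 lower in fetal cells. Over all measured genes the median was 0.05, with 19.5% higher and 14.3% lower. The part of sex in the differences described here was not tested.

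**Figure D2:**
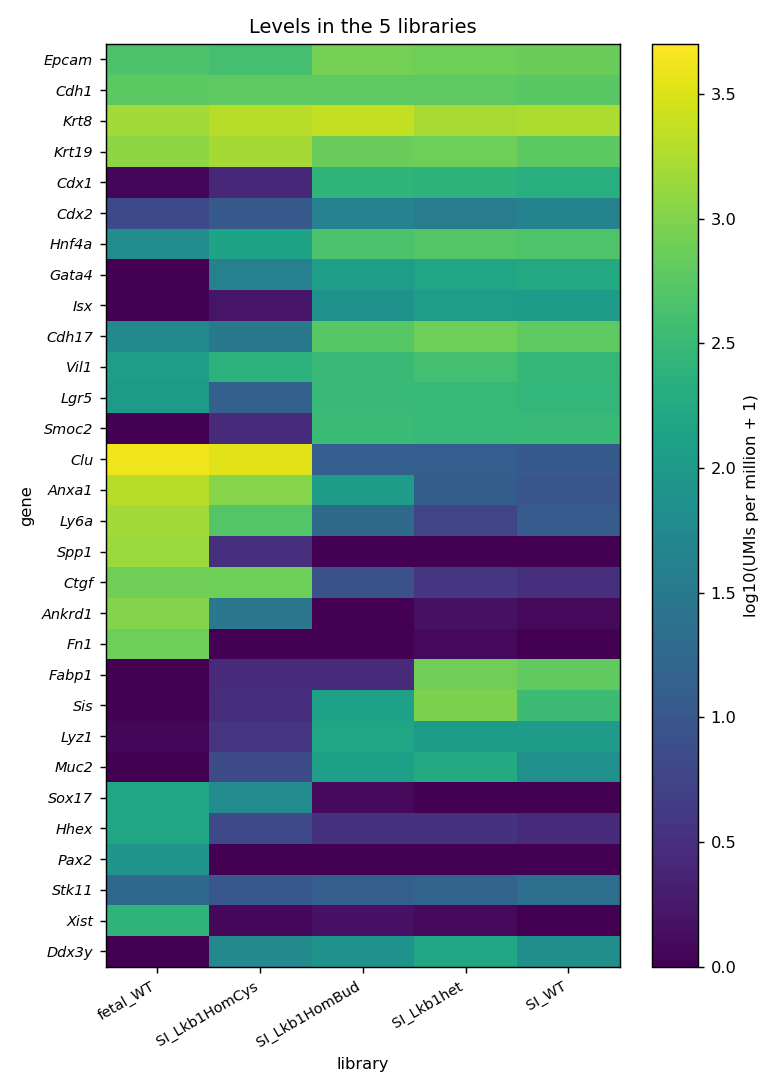
Heat map of selected genes (rows) in the 5 libraries (columns, SI_WT last), coloured by log10 of CPM plus 1. Epcam and Krt8 are bright in every column, Clu and Spp1 are bright in the fetal and dark in the SI WT column, and Cdx1 and Fabp1 are dark in the fetal and bright in the SI WT column.

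All measured members of the fetal and regenerative list were higher in fetal cells. This was 19 of 19 genes against the 19.5% of all measured genes, and their median log2 ratio was 4.28 (4.17 with the genes at 0 placed at their bound), against 0.05 over all genes. The list was chosen with earlier results of these data known. Summed over the list, fetal cells had 19238 CPM, Cys 14645, Bud 1493, het 951 and SI WT 783 CPM. The fetal and Cys libraries were thus high and the other 3 low.

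Clu, which encodes the secreted chaperone clusterin and marks the revival stem cells that appear after intestinal injury, had 4157 CPM in the fetal library, 3425 in the Cys, 11.8 in the Bud, 11.6 in the het and 10.3 CPM in the SI WT library. It lies at chr14:65968483-65981547 of GRCm38 and was 402-fold higher in fetal than in SI WT cells (95% interval 296 to 560.0). A UMI of Clu was found in 99.5% of thinned fetal cells and 1.24% of thinned SI WT cells (99.7% and 7.5% unthinned). Clu was thus near universal among fetal cells and rare in SI WT cells, where 1 cell held 19.5% of its UMIs.

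Anxa1, a calcium-dependent membrane-binding protein of fetal and repairing epithelium, had 1992 CPM in the fetal library, 1082 in the Cys, 106 in the Bud, 11.4 in the het and 8.33 CPM in the SI WT library. The Bud library stood between the fetal and Cys libraries on one side and the het and SI WT libraries on the other. Anxa3, another annexin, had 1052 CPM in fetal cells and 5.55 CPM in SI WT cells, and Anxa5 had 415 CPM in fetal cells and 8.58 CPM in SI WT cells. Ly6a, whose surface protein Sca-1 is used to sort fetal-like repairing cells, had 1553 CPM in the fetal library, 513 in the Cys, 18.3 in the Bud, 4.97 in the het and 11.1 CPM in the SI WT library, with a UMI in 88.3% of thinned fetal cells and 3.72% of thinned SI WT cells (98.6% and 8.93% unthinned).

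Gja1, the gap junction protein connexin 43, was 83.7 CPM in the fetal library, 56 in the Cys, 0 in the Bud, 0 in the het and 0 CPM in the SI WT library. It had no UMI in Bud, het or SI WT cells, so the fetal level was at least 111-fold higher than the floor of 3 UMIs in SI WT. Gja1 was found in 16.9% of thinned fetal cells (55.6% unthinned).

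Spp1 separated the fetal library from all others. This gene for osteopontin, a secreted phosphoprotein that binds integrins and CD44, lies at chr5:104435118-104441050 and had 1376 CPM in the fetal library, 2.23 in the Cys, 0 in the Bud, 0 in the het and 0 CPM in the SI WT library. It was found in 89.6% of thinned fetal cells (98.1% unthinned) and in no SI WT cell, at least 1817-fold higher. Msln, a surface glycoprotein best known from mesothelium, was present in fetal and Cys cells, with 1032 CPM in the fetal library, 1819.5 in the Cys, 0 in the Bud, 1.42 in the het and 0 CPM in the SI WT library. Vsig1, an adhesion protein of stomach epithelium, had 45.6 CPM in the fetal library, 326 in the Cys, 11.5 in the Bud, 0.948 in the het and 0 CPM in the SI WT library. Among the list's members, Spp1 was near 0 in Cys while Msln and Vsig1 were higher there than in fetal cells.

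Fetal and SI WT cells did not overlap in how many of these genes they held, which is given as a description of cells within 1 plate each. All 19 genes were called higher in these same cells, so a separation follows in part from the choice of genes. The edges were 1 fetal cell with 7 genes and 1 SI WT cell with 6, and cells under 3000 UMIs were left out. Per cell thinned to 3000 UMIs, a median of 12 of the 19 genes was detected in fetal cells, with a 10th to 90th percentile of 10 to 14 and a lowest value of 7. SI WT cells held a median of 1, with percentiles of 0 to 3 and a highest value of 6. For enterocyte genes the medians were 0 in fetal and 4 in SI WT cells, and 57.8% of fetal cells and 0.413% of SI WT cells held none.

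**Figure D3:**
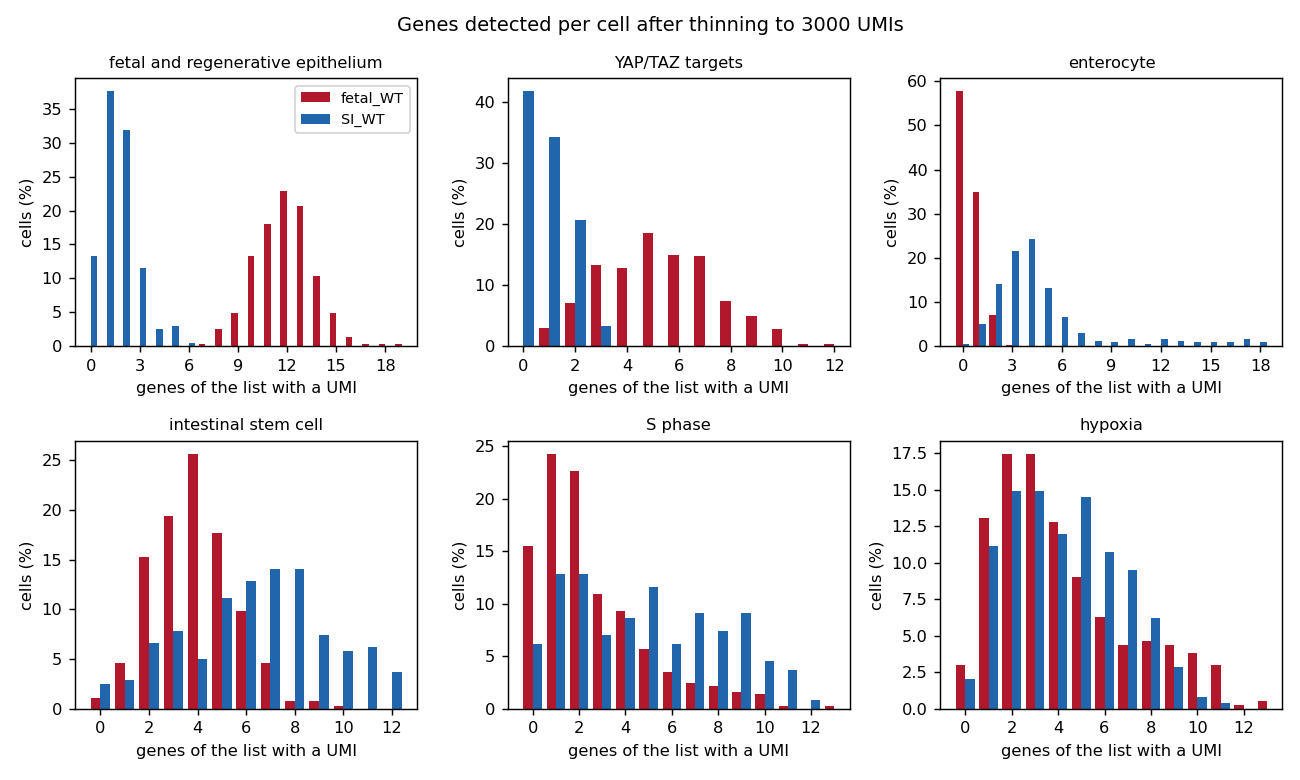
Share of cells by the number of list genes with a UMI, per cell thinned to 3000 UMIs, for 6 lists in 367 fetal and 242 SI WT cells. For the fetal and regenerative list the fetal cells start at 7 genes and the SI WT cells end at 6, and for the other lists the ranges overlap.

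Targets of YAP and TAZ were the second group that was almost wholly higher. Of 20 measured members, 18 were higher in fetal cells and none was lower, with a median log2 ratio of 2.32. Ankrd1, a muscle-type ankyrin repeat protein that is a standard readout of YAP, had 1020.0 CPM in the fetal library, 28.2 in the Cys, 0 in the Bud, 0.474 in the het and 0.252 CPM in the SI WT library. With 1 UMI in SI WT cells, its ratio was 4042 with a counting interval of 725 to 159662. Ctgf, a secreted matricellular protein and a classic target, had 796 CPM in the fetal library, 776 in the Cys, 7.28 in the Bud, 2.84 in the het and 2.27 CPM in the SI WT library. Both were below 10 CPM in the Bud, het and SI WT libraries, and the Cys library stood near the fetal one for Ctgf and far below it for Ankrd1. Ajuba, a LIM protein of the Hippo pathway, had 248 CPM in the fetal library, 138 in the Cys, 11 in the Bud, 11.1 in the het and 9.09 CPM in the SI WT library, and Myof, a membrane repair protein, had 538 CPM in the fetal library, 90.5 in the Cys, 4.02 in the Bud, 1.42 in the het and 1.77 CPM in the SI WT library.

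Axl, a receptor tyrosine kinase, was 131 CPM in the fetal library, 0 in the Cys, 0.251 in the Bud, 0.474 in the het and 0 CPM in the SI WT library, high in the fetal library only among the 5. Members that were not 2-fold different included Yap1 itself, with 117 CPM in fetal cells and 89.3 CPM in SI WT cells, and Birc5, an inhibitor of apoptosis that also follows mitosis, with 45.9 CPM in fetal cells and 91.6 CPM in SI WT cells. The coactivator TAZ (Wwtr1) differed from YAP, with 105 CPM in fetal cells and 1.51 CPM in SI WT cells. Per thinned cell, a median of 5 of the 22 list genes was detected in fetal cells and 1 in SI WT cells, and 41.7% of SI WT cells and no fetal cell held none. The fetal cells differed among themselves, from 1 to 12 of these genes.

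Promoter sequences of RefSeq (GRCm38.p6, 250 bases before to 50 after a start) were searched on both strands for 5 short motifs. TEAD and AP-1 were included since YAP and TAZ bind DNA through TEAD and injury genes are often AP-1 targets. Only 1 promoter a gene was searched, and where RefSeq holds more, as the 2 of Emp1 and of Hnf4a, the rest was left out. The TEAD letters GGAATG were in 9 of 18 promoters of the YAP and TAZ target list (50%), against 11.9% of the 7975 promoters of measured genes. They were in 14.4% of those at least 2-fold higher in fetal cells, 13.2% of those at least 2-fold lower and 4 of 18 enterocyte promoters (22.2%). In the fetal and regenerative list they were in 2 of 14 (14.3%). The target list holds known targets of factors that act through TEAD, so its excess follows in part from the choice of genes. The AP-1 letters TGANTCA were in 6 of 14 promoters of the fetal and regenerative list (42.9%), against 4.87% of all, 7.06% of the higher and 4.59% of the lower genes. They were in 1 of 18 promoters of the YAP and TAZ target list (5.56%) and in none of the 18 enterocyte promoters. A match describes letters in a window and is not a bound site. For genes with a match, the 250 bases before the start are shown 5' to 3' on the gene's strand with matches in capitals, CATTCC being GGAATG on the other strand and TTATCT being AGATAA, the GATA letters. Ankrd1 at chr19:36119845-36120094 (- strand) and Ajuba at chr14:54577662-54577911 (- strand) hold a pair of TEAD matches each and Cyr61, a secreted relative of Ctgf, at chr3:145649986-145650235 (- strand) holds a single one.
Ankrd1: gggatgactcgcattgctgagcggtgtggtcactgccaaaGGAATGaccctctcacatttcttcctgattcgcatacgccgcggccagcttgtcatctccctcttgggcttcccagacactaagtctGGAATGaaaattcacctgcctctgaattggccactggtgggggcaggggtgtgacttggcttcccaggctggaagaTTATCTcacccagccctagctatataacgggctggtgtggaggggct
Ajuba: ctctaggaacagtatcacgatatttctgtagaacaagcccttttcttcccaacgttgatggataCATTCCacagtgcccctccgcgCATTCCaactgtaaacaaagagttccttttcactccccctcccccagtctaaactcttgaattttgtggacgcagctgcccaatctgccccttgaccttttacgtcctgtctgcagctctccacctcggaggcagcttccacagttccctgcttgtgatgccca
Cyr61: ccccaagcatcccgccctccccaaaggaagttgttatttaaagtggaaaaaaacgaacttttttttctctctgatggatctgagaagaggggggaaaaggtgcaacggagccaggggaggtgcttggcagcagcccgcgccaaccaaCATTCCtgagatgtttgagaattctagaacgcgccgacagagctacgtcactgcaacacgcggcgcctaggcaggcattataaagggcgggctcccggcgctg
The next 3 are from the fetal and regenerative list and hold AP-1 matches: Emp1 at chr6:135362681-135362930 (+ strand), an epithelial membrane protein, Cldn4 at chr5:134946935-134947184 (- strand), a tight junction protein, and Gja1 at chr10:56377050-56377299 (+ strand), which also holds a GATA match.
Emp1: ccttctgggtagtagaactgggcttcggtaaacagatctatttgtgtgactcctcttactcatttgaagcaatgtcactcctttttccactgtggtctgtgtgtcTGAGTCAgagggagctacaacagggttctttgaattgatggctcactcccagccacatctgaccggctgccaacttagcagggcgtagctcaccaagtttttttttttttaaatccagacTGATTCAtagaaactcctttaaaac
Cldn4: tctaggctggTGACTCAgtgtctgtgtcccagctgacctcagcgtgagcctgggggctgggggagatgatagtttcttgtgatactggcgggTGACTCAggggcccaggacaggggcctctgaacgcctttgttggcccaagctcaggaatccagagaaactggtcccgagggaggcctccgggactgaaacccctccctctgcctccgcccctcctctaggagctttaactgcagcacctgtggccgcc
Gja1: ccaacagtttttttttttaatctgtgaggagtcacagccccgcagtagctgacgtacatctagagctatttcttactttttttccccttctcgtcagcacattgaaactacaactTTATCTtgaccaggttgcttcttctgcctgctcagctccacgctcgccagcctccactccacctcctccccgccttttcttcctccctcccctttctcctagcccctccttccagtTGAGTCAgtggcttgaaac
Cyr61 had 367 CPM in fetal cells and 17.9 CPM in SI WT cells, Emp1 466 CPM in fetal cells and 37.9 CPM in SI WT cells and Cldn4 258 CPM in fetal cells and 37.4 CPM in SI WT cells. All 6 genes shown were higher in fetal cells, which is how they were chosen, and Ctgf and Clu are named only.

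Matrix and integrin genes were higher in fetal cells in 22 of 24 measured members, with none lower and a median log2 ratio of 1.86. Fn1, fibronectin, had 755 CPM in the fetal library, 0 in the Cys, 0 in the Bud, 0.237 in the het and 0 CPM in the SI WT library, so it was nearly confined to the fetal library among the 5. The basement membrane collagens were instead shared with the Cys library: Col4a1 had 128 CPM in the fetal library, 63.1 in the Cys, 0 in the Bud, 0 in the het and 0 CPM in the SI WT library, Col4a2 111 CPM in the fetal library, 142 in the Cys, 0 in the Bud, 0 in the het and 0 CPM in the SI WT library, and Col18a1 149.6 CPM in the fetal library, 43 in the Cys, 0 in the Bud, 0 in the het and 0 CPM in the SI WT library. None of the 4 genes had a UMI in SI WT cells, and the bounds were at least 998-fold for Fn1, 169.6-fold for Col4a1, 147-fold for Col4a2 and 198-fold for Col18a1. Fn1 was found in 76.8% of thinned fetal cells (95.4% unthinned), and fibroblast markers were at or near 0 as given above. Mmp7, the matrilysin that Paneth cells secrete in the adult gut, had 661 CPM in the fetal library, 27.8 in the Cys, 39.7 in the Bud, 74.6 in the het and 22.2 CPM in the SI WT library. The 2 members that were measured and not called were the laminin Lamb3, with 46.8 CPM in fetal cells and 29.8 CPM in SI WT cells, and the integrin Itga6, with 27.7 CPM in fetal cells and 31.8 CPM in SI WT cells.

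Among IGF binding proteins and receptors, 6 of 8 measured members were higher and none lower. Igfbp7, a secreted protein that binds IGFs weakly, had 1263 CPM in the fetal library, 0 in the Cys, 0 in the Bud, 0.711 in the het and 0.252 CPM in the SI WT library, and was found in 90.5% of thinned fetal cells (97.8% unthinned). Its 1 UMI in SI WT cells gives a ratio of 5003 with a counting interval of 898 to 197646. Igf1r, the IGF1 receptor, was 4.6-fold higher with 204 CPM in fetal cells and 44.4 CPM in SI WT cells. Irs1, the adaptor that passes on its signal, had 60 CPM in fetal cells and 2.02 CPM in SI WT cells. Igfbp4 was 3.29-fold above SI WT but had 347 CPM in the fetal library, 2.03 in the Cys, 89.6 in the Bud, 344 in the het and 105 CPM in the SI WT library, so the het library was as high as the fetal one.

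Of 15 measured genes of the EGF family and ERK feedback, 10 were higher and none was lower, with a median log2 ratio of 0.80. The ligands Hbegf and Areg were both higher. Hbegf had 167.9 CPM in the fetal library, 38.8 in the Cys, 15.6 in the Bud, 14.9 in the het and 13.6 CPM in the SI WT library. Areg had 65.1 CPM in the fetal library, 162 in the Cys, 20.3 in the Bud, 27.2 in the het and 16.2 CPM in the SI WT library, highest in the Cys library. The feedback inhibitors Dusp6 and Spry2 were 3.15-fold and 6.18-fold higher in fetal cells, with 76.3 CPM in fetal cells and 24.2 CPM in SI WT cells and 60.8 CPM in fetal cells and 9.84 CPM in SI WT cells. Phlda1, a pleckstrin homology-like protein that ERK signalling raises, had 826 CPM in fetal cells and 307 CPM in SI WT cells. The ERK-responsive factors Etv4 and Etv5 were within 2-fold, with 31.8 CPM in fetal cells and 38.9 CPM in SI WT cells and 21 CPM in fetal cells and 13.6 CPM in SI WT cells.

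Targets of p53 were higher in 11 of 13 measured members and lower in none, with a median log2 ratio of 1.51. Ccng1, cyclin G1, had 584 CPM in the fetal library, 589 in the Cys, 122 in the Bud, 75.6 in the het and 105 CPM in the SI WT library. Mdm2, the ubiquitin ligase that restrains p53, was 4.74-fold higher with 157 CPM in fetal cells and 33.1 CPM in SI WT cells. Phlda3, an inhibitor of Akt, had 103 CPM in fetal cells and 7.82 CPM in SI WT cells, and Zmat3, an RNA-binding target, had 100.3 CPM in fetal cells and 17.2 CPM in SI WT cells. Eda2r, a death receptor, had 295 UMIs in fetal and 2 in SI WT cells, a ratio of 99.8 with a counting interval of 27.4 to 828. For Ccng1 the Cys library stood at the fetal level and Bud and het stood with SI WT. A median of 4 of the 14 genes was detected per thinned fetal cell and 1 per SI WT cell.

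Immediate early and stress genes that dissociation is known to raise were higher in 7 of 13 measured members and lower in none. Ier3 had 597 CPM in fetal cells and 13.4 CPM in SI WT cells, Dusp1 64.2 CPM in fetal cells and 3.53 CPM in SI WT cells, Junb 236 CPM in fetal cells and 39.1 CPM in SI WT cells and the heat shock gene Hspa1b 95.3 CPM in fetal cells and 3.79 CPM in SI WT cells. The best known members were not called: Fos had 47 CPM in fetal cells and 45.7 CPM in SI WT cells, Jun 65.8 CPM in fetal cells and 88.6 CPM in SI WT cells and Egr1 41.8 CPM in fetal cells and 25.7 CPM in SI WT cells. The part of dissociation in any difference was not tested.

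Hypoxia genes went both ways. Of 16 measured members, 6 were higher and 2 lower, with a median log2 ratio of 0.65. Per thinned cell, a median of 3 members was detected in fetal cells and 4 in SI WT cells. The median sum was 4 UMIs in fetal and 6 UMIs in SI WT cells, and the 90th percentile was 23 UMIs in fetal and 18 UMIs in SI WT cells. Hilpda, a lipid droplet protein, was 6.34-fold higher with 120.1 CPM in fetal cells and 18.9 CPM in SI WT cells, and Adm and P4ha2, adrenomedullin and a collagen prolyl hydroxylase, had 33 CPM in fetal cells and 6.31 CPM in SI WT cells, and 63.5 CPM in fetal cells and 12.4 CPM in SI WT cells. Car9, the carbonic anhydrase that is among the best known hypoxia targets, was the other way, with 5.29 CPM in the fetal library, 39.8 in the Cys, 380.3 in the Bud, 515 in the het and 448 CPM in the SI WT library. Ndrg1 was 2.75-fold lower by CPM, with 205 CPM in fetal cells and 563 CPM in SI WT cells, and not 2-fold lower by spike-in scaling. Car9 was found in 1.36% of thinned fetal cells and 63.6% of thinned SI WT cells (7.05% and 82.1% unthinned).

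In the unfolded protein response 3 of 15 measured genes were higher and 2 lower, near the shares of 19.5% and 14.3% among all genes, while by spike-in scaling 9 were higher and none lower. The chaperones Hspa5 and Hsp90b1 were 1.67-fold and 1.81-fold above SI WT, under the 2-fold limit. Atf4 and its target Trib3 were lower by CPM, with 171 CPM in fetal cells and 464 CPM in SI WT cells, and 7.34 CPM in fetal cells and 22 CPM in SI WT cells, and neither was 2-fold lower by spike-in scaling. Atf3 was higher, with 21.2 CPM in fetal cells and 4.8 CPM in SI WT cells.

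Secreted defence proteins divided into one set that was high and one that was absent in fetal cells. Of 13 measured members, 8 were higher and 4 lower. Wfdc2, a secreted protease inhibitor at chr2:164562413-164568510, had 1777 CPM in the fetal library, 0.812 in the Cys, 0 in the Bud, 0 in the het and 0 CPM in the SI WT library and was found in 95.4% of thinned fetal cells (and in every fetal cell unthinned). The neutrophil chemokine Cxcl5 had 1088 CPM in the fetal library, 16.6 in the Cys, 0.251 in the Bud, 0.711 in the het and 0 CPM in the SI WT library, and Ppbp, another CXC chemokine, had 947 CPM in the fetal library, 0 in the Cys, 0 in the Bud, 0.474 in the het and 0 CPM in the SI WT library. These 3 genes had no UMI in SI WT cells and were at least 2347-fold, 1437-fold and 1250.4-fold higher. Sprr1a, a cornified envelope protein that injured gut epithelium is known to make, had 445 CPM in the fetal library, 12.6 in the Cys, 0.251 in the Bud, 7.82 in the het and 0.252 CPM in the SI WT library, with a UMI in 33% of thinned fetal cells (60.7% unthinned) and up to 58 UMIs in a thinned cell.

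The other set belongs to the differentiated epithelium. Pigr, the receptor that carries IgA to the lumen, had 0.171 CPM in the fetal library, 598 in the Cys, 572 in the Bud, 1134 in the het and 717 CPM in the SI WT library. Its 1 UMI in fetal cells gives a level 4195-fold lower, with a counting interval of 752 to 165750.0. By summed CPM, Pigr was thus lacking in the fetal library only, with the Cys library near the SI WT level. Lypd8, a secreted protein that keeps bacteria off the colon surface, had 0.342 CPM in the fetal library, 22.9 in the Cys, 712 in the Bud, 1045 in the het and 989.6 CPM in the SI WT library and was low in both fetal and Cys cells.

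Among interferon genes, 6 of 12 measured members were higher and 1 lower. Ifitm3, a membrane protein that restricts viral entry, had 1027 CPM in the fetal library, 0.812 in the Cys, 0.753 in the Bud, 0.711 in the het and 243 CPM in the SI WT library, and Ifitm1 had 231 CPM in the fetal library, 0.203 in the Cys, 2.76 in the Bud, 0.948 in the het and 2.27 CPM in the SI WT library. Ifitm3 was also under 1 CPM in the Cys, Bud and het libraries, so the small intestinal libraries differed in it among themselves. Genes that interferon is known to raise most, among them Isg15 and Ifit1, were at 0.683 CPM in fetal cells and 0.505 CPM in SI WT cells, and 1.02 CPM in fetal cells and 1.01 CPM in SI WT cells. B2m, the light chain of MHC class I, had 384 CPM in fetal cells and 575 CPM in SI WT cells and H2-D1, a heavy chain, 395 CPM in fetal cells and 179 CPM in SI WT cells. The log2 ratio of B2m was -0.57 by CPM and 0.10 by spike-in scaling. None of 7 MHC class II genes was measured.

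Genes of the Lgr5 stem cell were lower as a group, and Lgr5 itself was not lost. Of 18 measured members, 10 were lower and 4 higher, with a median log2 ratio of -1.15; by spike-in scaling 7 were lower and the median was -0.50. Lgr5, the R-spondin receptor at chr10:115450311-115587780, had 102 CPM in the fetal library, 12.8 in the Cys, 316 in the Bud, 304 in the het and 279.6 CPM in the SI WT library. It was 2.73-fold lower by CPM (95% interval 2.47 to 3.02) and not 2-fold lower by spike-in scaling, and it was found in 25.9% of thinned fetal cells and 53.7% of thinned SI WT cells (51.8% and 71.4% unthinned). In contrast Smoc2, a secreted calcium-binding protein of the same stem cells, had no UMI in any fetal cell, with 0 CPM in the fetal library, 1.83 in the Cys, 329 in the Bud, 297 in the het and 315 CPM in the SI WT library, at least 615-fold lower.

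Ascl2, a transcription factor that maintains Lgr5 cells, had 14 CPM in the fetal library, 27.4 in the Cys, 155 in the Bud, 146 in the het and 159 CPM in the SI WT library. Rgmb, a coreceptor for BMPs, had 5.98 CPM in fetal cells and 65.4 CPM in SI WT cells, and Hopx had 30.2 CPM in fetal cells and 483 CPM in SI WT cells. Olfm4, often used as a stem cell marker, was low in both, with 1 UMI in fetal and 47 UMIs in SI WT cells. The higher members were Cd44, Tnfrsf19, Bmi1 and Prom1, of which Cd44, the hyaluronan receptor, had 537 CPM in fetal cells and 155 CPM in SI WT cells.

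WNT pathway genes were mixed, with 7 of 16 measured members lower and 3 higher by CPM and 4 on each side by spike-in scaling. Axin2, the feedback gene most used as a WNT readout, had 30.1 CPM in the fetal library, 11 in the Cys, 200.1 in the Bud, 163 in the het and 179 CPM in the SI WT library, and the fetal and Cys libraries were the low ones. Lgr4 and Ephb2 were 3.24-fold and 3.75-fold lower in fetal cells, with 40.5 CPM in fetal cells and 131 CPM in SI WT cells, and 24.9 CPM in fetal cells and 93.6 CPM in SI WT cells. Ccnd1, cyclin D1, was 5.34-fold higher, with 1068 CPM in the fetal library, 529 in the Cys, 273 in the Bud, 229 in the het and 200.1 CPM in the SI WT library. In the Notch list, 2 of 12 measured genes were higher (Notch2 and Jag1) and 3 lower (Dll1, Dll4 and Atoh1), with a median log2 ratio of -0.02 that was 0.46 by spike-in scaling. The ligand Jag1 had 65.8 CPM in fetal cells and 12.4 CPM in SI WT cells, and the target Hes1, within 2-fold, had 279 CPM in fetal cells and 235 CPM in SI WT cells.

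S phase genes were lower by CPM in 9 of 16 members and higher in none, with a median log2 ratio of -0.95, but only 1 was lower by spike-in scaling. Pcna, the sliding clamp of DNA replication, had 359 CPM in the fetal library, 513 in the Cys, 724 in the Bud, 585 in the het and 863 CPM in the SI WT library. Mcm5, a helicase subunit, had 67 CPM in fetal cells and 182 CPM in SI WT cells, and the licensing factor Cdt1 had 50 CPM in fetal cells and 179 CPM in SI WT cells. A UMI of Pcna was found in 51.2% of thinned fetal cells and 74.8% of thinned SI WT cells (87% and 85.7% unthinned), so the difference in shares was seen after thinning. Of 16 mitotic genes, 3 were lower and 1 higher by CPM, against 3 higher and none lower by spike-in scaling. Mki67, the proliferation antigen, had 132 CPM in fetal cells and 195 CPM in SI WT cells and was found in 22.6% of thinned fetal cells and 29.8% of thinned SI WT cells (42.8% and 47.1% unthinned), and its log2 ratio was -0.53 by CPM and 0.12 by spike-in scaling. Top2a, a topoisomerase of dividing cells, had 112 CPM in fetal cells and 334 CPM in SI WT cells, whereas Ccnb2, cyclin B2, had 230.4 CPM in fetal cells and 96.7 CPM in SI WT cells and was 2.38-fold higher.

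**Figure D4:**
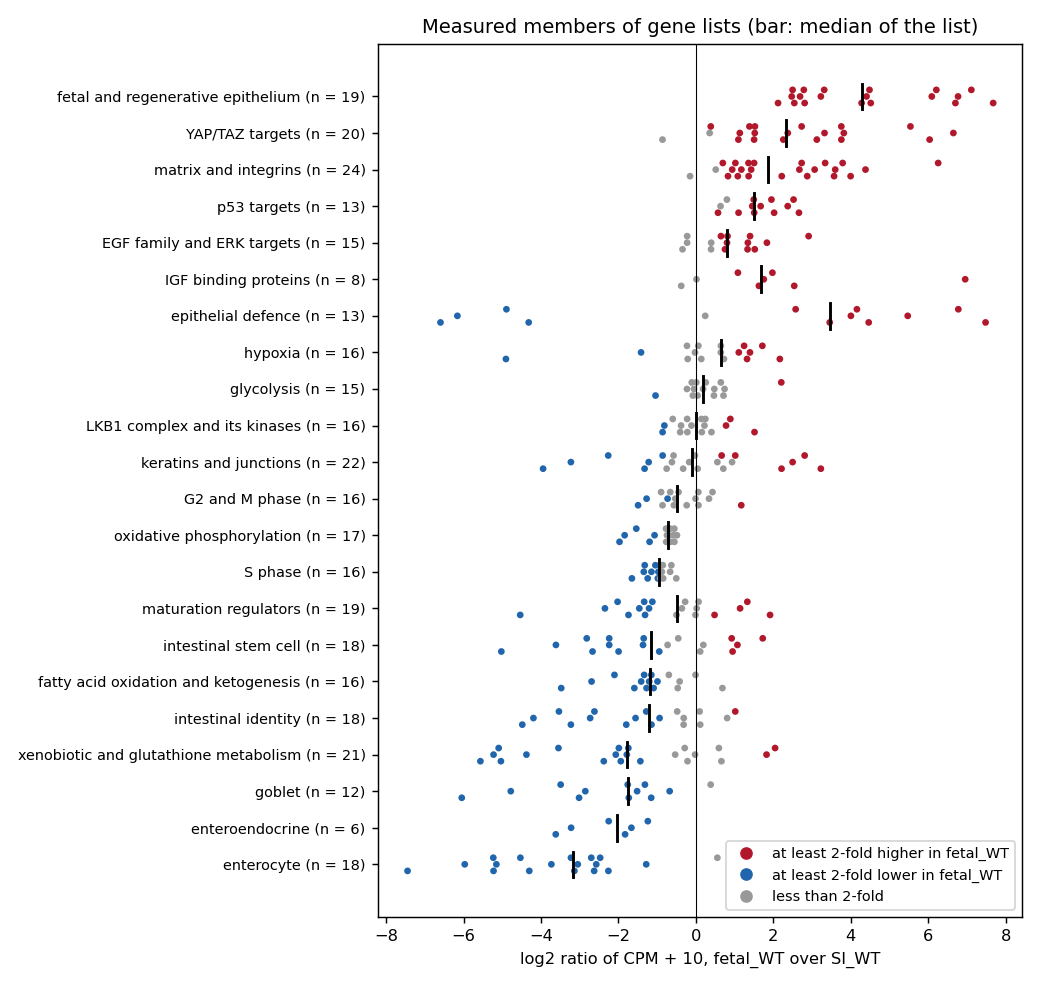
Log2 ratio of fetal over SI WT, log2((CPM + 10)/(CPM + 10)), for each measured member of the gene lists, with 1 point a gene and a bar at the list's median. All 19 fetal and regenerative genes lie above 0, and 17 of 18 measured enterocyte genes lie past 2-fold on the other side.

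Enterocyte genes were nearly absent from fetal cells. Of 18 measured members, 17 were at least 2-fold lower, none was higher, and the median log2 ratio was -3.18 (-3.11 with the genes at 0 placed at their bound), against 14.3% lower among all measured genes. Fabp1, a fatty acid binding protein of absorptive cells, had 0 CPM in the fetal library, 1.83 in the Cys, 1.76 in the Bud, 787 in the het and 616 CPM in the SI WT library. It was found in 17.4% of thinned SI WT cells (33.2% unthinned) and in no fetal cell, which makes it at least 1202-fold lower. Sis, sucrase-isomaltase of the brush border, had 0 CPM in the fetal library, 2.03 in the Cys, 131 in the Bud, 941 in the het and 346 CPM in the SI WT library, and Alpi, intestinal alkaline phosphatase, had 0 CPM in the fetal library, 1.01 in the Cys, 15.6 in the Bud, 279.5 in the het and 78 CPM in the SI WT library. None of these 3 genes had a UMI in the fetal library. The small intestinal libraries differed among themselves in all of them, and the Cys library was also low.

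Mgam, maltase-glucoamylase, had 4.61 CPM in fetal cells and 539 CPM in SI WT cells, a 117-fold difference (95% interval 80.1 to 178). Mttp, which loads lipid onto chylomicrons, had 5.64 CPM in fetal cells and 198 CPM in SI WT cells. The member within 2-fold was the keratin Krt20, with 51.1 CPM in fetal cells and 31.5 CPM in SI WT cells, a gene that fetal cells did hold. For the promoters of this group, the CDX letters CAATAAA were in 2 of 18 enterocyte promoters, Sis and Fabp2, against 2.38% of all 7975, and the GATA letters AGATAA were in 5 of 18 (27.8%) against 5.91%. The HNF4 letters CAAAGTCCA were in 0.351% of all promoters and in 1 of these, that of Alpi. Those of Sis at chr3:72967864-72968113 (- strand) and Hnf4a at chr2:163506607-163506856 (+ strand) are shown as examples of genes lower in fetal cells with such a match.
Sis: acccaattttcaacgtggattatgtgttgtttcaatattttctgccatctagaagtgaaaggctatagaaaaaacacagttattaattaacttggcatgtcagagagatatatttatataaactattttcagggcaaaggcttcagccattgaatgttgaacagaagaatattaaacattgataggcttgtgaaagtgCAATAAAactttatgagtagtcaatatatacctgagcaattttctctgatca
Hnf4a: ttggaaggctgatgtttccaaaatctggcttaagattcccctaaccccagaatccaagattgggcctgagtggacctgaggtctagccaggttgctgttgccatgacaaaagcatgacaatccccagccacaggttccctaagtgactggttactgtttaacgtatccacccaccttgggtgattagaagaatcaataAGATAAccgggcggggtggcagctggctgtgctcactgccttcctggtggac
The capitals mark the CDX letters before Sis and the GATA letters before Hnf4a, and nothing about binding follows from them. Cdx1 is named only.

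Other genes far below SI WT lay outside the list. Lgals2, a galectin, had 3.76 CPM in the fetal library, 438 in the Cys, 3325 in the Bud, 2660.2 in the het and 2980.1 CPM in the SI WT library. Mt2, a metallothionein that binds zinc and copper, had 30.4 CPM in the fetal library, 190.2 in the Cys, 1312 in the Bud, 1672 in the het and 3006 CPM in the SI WT library, and 1 fetal cell held 19.1% of its fetal UMIs. Muc13, a membrane mucin, and Tm4sf5, a tetraspanin-like membrane protein, had no UMI in fetal cells and 374 and 367 CPM in SI WT cells. All 4 genes were found in the Bud and het libraries as well, with Muc13 at 323 and 473 CPM there.

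Drug and alcohol metabolism was lower in 13 of 21 measured members and higher in 2. Adh1, an alcohol dehydrogenase, had 2 UMIs in fetal and 1493 in SI WT cells, 1103-fold lower with a counting interval of 305 to 9117. Aldh1b1, a mitochondrial aldehyde dehydrogenase, had 1.02 CPM in the fetal library, 3.25 in the Cys, 509.6 in the Bud, 584 in the het and 512 CPM in the SI WT library. Cyp2c65, a cytochrome P450, Ces2e, a carboxylesterase, and Gstm3, a glutathione transferase, had 0.171, 1.88 and 8.37 CPM in fetal cells, against 323, 395 and 371 CPM in SI WT cells. The 2 higher members were Gsta4, with 851 CPM in fetal cells and 198 CPM in SI WT cells, and Akr1b8, with 214 CPM in fetal cells and 53.3 CPM in SI WT cells. Many of these enzymes have close relatives in the genome, and the sources used here do not say how reads with several matches were counted, so values of single members are uncertain.

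Transport genes were lower in 12 of 17 measured members and higher in 4. Slc5a1, the sodium-glucose transporter SGLT1, had 1.02 CPM in fetal cells and 207 CPM in SI WT cells, and the chloride channel Cftr 6.32 CPM in fetal cells and 80.5 CPM in SI WT cells. Car12, a membrane carbonic anhydrase, had 4.27 CPM in fetal cells and 87.3 CPM in SI WT cells, and its cytosolic relative Car2 was the other way, with 329 CPM in the fetal library, 1153 in the Cys, 3.77 in the Bud, 3.79 in the het and 20.7 CPM in the SI WT library. Slc39a4, the zinc importer ZIP4, was 7.21-fold higher in fetal cells, with 706 CPM in the fetal library, 608 in the Cys, 133 in the Bud, 79.1 in the het and 97.9 CPM in the SI WT library. For both of these higher genes the Cys library stood with the fetal one.

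Fatty acid oxidation and ketone genes were lower in 11 of 16 measured members by CPM and in 6 by spike-in scaling. The regulator Ppara, a nuclear receptor for fatty acids, had 1 UMI in fetal and 221 in SI WT cells. Cpt1a, which admits fatty acids to mitochondria, had 19 CPM in fetal cells and 114 CPM in SI WT cells, Acaa2, a thiolase, 46.6 CPM in fetal cells and 160.3 CPM in SI WT cells, and Bdh1, which makes hydroxybutyrate, 5.29 CPM in fetal cells and 160.3 CPM in SI WT cells. Respiratory chain genes were lower in 5 of 17 by CPM and in 2 by spike-in scaling, where the median log2 ratio was -0.06 in place of -0.72. Sdhb, a subunit of complex II, had 48.2 CPM in fetal cells and 198 CPM in SI WT cells, and Uqcrq, a subunit of complex III, 201 CPM in fetal cells and 815 CPM in SI WT cells. Cholesterol synthesis genes were lower in 5 of 17 by CPM and in none by spike-in scaling. Glycolysis genes were mostly within 2-fold: 1 of 15 was higher (Hk1, a hexokinase, with 169 CPM in fetal cells and 28.8 CPM in SI WT cells) and 1 lower (Pfkp, a phosphofructokinase, with 93.9 CPM in fetal cells and 204 CPM in SI WT cells), while by spike-in scaling 6 were higher and none lower.

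Genes of the secretory lineages were low as well. Of 12 measured goblet genes, 11 were lower and none higher, with a median log2 ratio of -1.75. Muc2, the gel-forming mucin, had 0 CPM in the fetal library, 6.29 in the Cys, 121 in the Bud, 183 in the het and 70.9 CPM in the SI WT library, and 1 SI WT cell held 77.9% of its SI WT UMIs. Tff3, a trefoil peptide of goblet cells, had 0 CPM in the fetal library, 356 in the Cys, 1142 in the Bud, 1110.3 in the het and 651 CPM in the SI WT library, and Agr2, a disulfide isomerase that folds mucins, 0 CPM in the fetal library, 687 in the Cys, 165 in the Bud, 180.3 in the het and 102 CPM in the SI WT library. Fcgbp had 6.49 CPM in fetal cells and 443 CPM in SI WT cells and Klk1, a kallikrein, 0 CPM in fetal cells and 62.3 CPM in SI WT cells. The top SI WT cell of each gene held 45.4% of the SI WT UMIs of Fcgbp, 34% of those of Agr2 and 4.45% of those of Klk1. The Cys library held Tff3 and Agr2, neither of which had a UMI in fetal cells.

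Enteroendocrine genes were lower in all 6 measured members. Neurog3, the factor that commits endocrine progenitors, had 0 CPM in the fetal library, 0.609 in the Cys, 119 in the Bud, 107 in the het and 83.3 CPM in the SI WT library, and Chga, chromogranin A, had 0 CPM in the fetal library, 0 in the Cys, 0 in the Bud, 20.4 in the het and 13.6 CPM in the SI WT library. Chgb, Fev, Insm1 and Tph1 had no UMI in fetal cells and between 21.7 and 113 CPM in SI WT cells. The Bud library also had no UMI of these 4 genes or of Chga, so against Bud only Neurog3 of the 6 was lower. These lineage genes rest on few SI WT cells: 1 cell held 91.5% of the UMIs of Chgb, 60.4% of those of Tph1 and 59.3% of those of Chga, and Chga and Chgb were not called when each gene's dominant cell was left out. Secretory progenitor genes were lower in 6 of 9 measured members, Foxa3 with 6.83 CPM in fetal cells and 27.3 CPM in SI WT cells among them, and Hes6 and Foxa2 were within 2-fold.

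Paneth cell genes went both ways, with 2 of 6 measured members higher and 3 lower. Lyz1, lysozyme, had 1 UMI in fetal and 427 in SI WT cells. Guca2b had 3 UMIs in fetal and 93 in SI WT cells. Mmp7, given with the matrix genes, and Habp2, with 29.7 CPM in fetal cells and 3.79 CPM in SI WT cells, were the higher ones. Of 10 tuft cell genes, 2 were measured, Dclk1 and Alox5ap, and both were higher. Dclk1, a kinase widely used as the tuft marker, had 92.2 CPM in the fetal library, 0.406 in the Cys, 0 in the Bud, 9.95 in the het and 2.02 CPM in the SI WT library and was found in 24.8% of thinned fetal cells and 0.413% of thinned SI WT cells (56.1% and 0.714% unthinned). The tuft factors Pou2f3 and Gfi1b and the channel Trpm5 were at 1.2, 0 and 0 CPM in fetal cells. Dclk1 and Alox5ap were thus higher while these factors and this channel were at or near 0.

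M cell genes were higher in 3 of 6 measured members and lower in 2. Tnfaip2, involved in membrane tubes, had 415 CPM in the fetal library, 5.89 in the Cys, 1.00 in the Bud, 3.55 in the het and 2.27 CPM in the SI WT library, and Ccl20, the chemokine of the epithelium over lymphoid follicles, 67.5 CPM in fetal cells and 3.03 CPM in SI WT cells. Tnfrsf11a, the receptor RANK that induces M cells, was lower by CPM with 15.5 CPM in fetal cells and 40.4 CPM in SI WT cells and not called by spike-in scaling, and Spib, their factor, had 0.342 CPM in fetal cells and 1.51 CPM in SI WT cells. Gastric genes were few: of 17 in the tables, 4 were measured, with Vsig1, Ctse and Aqp5 higher and Pgc lower. Ctse, cathepsin E, had 35.5 CPM in the fetal library, 194 in the Cys, 0.251 in the Bud, 0.474 in the het and 0 CPM in the SI WT library, and the stomach products Gkn1, Tff2 and Muc6 had no UMI in fetal cells. In the summed gastric list the Cys library stood far above the fetal one, with 115 CPM in fetal, 5926 CPM in Cys and 21.5 CPM in SI WT cells.

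Oncofetal genes were higher in 5 of 8 measured members and lower in 1. Igf2bp1, which binds and stabilises growth mRNAs and is best known from embryos and tumours, had 60 CPM in the fetal library, 5.48 in the Cys, 0 in the Bud, 0 in the het and 0 CPM in the SI WT library. It was at least 79.2-fold higher than in SI WT cells and was found in 16.9% of thinned fetal cells (51.5% unthinned). Its relatives did not follow: Igf2bp2 had 134 CPM in the fetal library, 29.2 in the Cys, 75.1 in the Bud, 96.2 in the het and 97.9 CPM in the SI WT library, and Igf2bp3 6.66 CPM in the fetal library, 0.406 in the Cys, 1.51 in the Bud, 0.237 in the het and 66.6 CPM in the SI WT library. Igf2bp3 was lower in fetal than in SI WT cells but higher than in the het library, so its direction depends on the small intestinal library compared. Hmga2, a chromatin protein of fetal tissues, had 243 CPM in the fetal library, 1.62 in the Cys, 72.3 in the Bud, 57.1 in the het and 97.2 CPM in the SI WT library. Dlk1, an imprinted growth gene, had 119 UMIs in fetal cells and 1 in SI WT cells. Lin28b, which blocks let-7 in the fetal gut, had 5 UMIs in fetal cells and none in SI WT cells, too few for a fold.

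Regulators of the switch from fetal to adult gut were lower in 9 of 19 measured members and higher in 4, with a median log2 ratio of -0.50 that was -0.07 by spike-in scaling. Prdm1 (Blimp1), the repressor that holds back the adult program in the suckling mouse, was low in both, with 3.25 CPM in fetal cells and 2.52 CPM in SI WT cells. Nuclear receptors of the mature gut were low in fetal cells: Vdr, the vitamin D receptor, had 4.27 CPM in the fetal library, 8.52 in the Cys, 316 in the Bud, 278 in the het and 321 CPM in the SI WT library, and Nr1i2, the xenobiotic receptor PXR, had 1 UMI in fetal and 95 in SI WT cells. Sox11, a factor of embryonic tissues, had 28.7 CPM in fetal cells and 0.252 CPM in SI WT cells. Bcl11a and Bcl11b, zinc finger factors, had 0.342 CPM in fetal cells and 42.7 CPM in SI WT cells, and 14.3 CPM in fetal cells and 88.8 CPM in SI WT cells. For Vdr the fetal and Cys libraries were low and the other 3 alike.

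Keratins and junction proteins went both ways, with 6 of 22 measured members higher and 6 lower, against 19.5% and 14.3% of all genes. Krt7, a keratin of ductal and fetal epithelia, had 2319 CPM in the fetal library, 1488 in the Cys, 424 in the Bud, 269.6 in the het and 322 CPM in the SI WT library, 7.2-fold higher in fetal than in SI WT cells. Cldn15, the claudin that forms sodium pores in the gut, had 3 UMIs in fetal and 602 in SI WT cells, 297-fold lower with a counting interval of 101 to 1442. Cldn4, which seals junctions, was 6.9-fold higher. Cdh1, E-cadherin, had 586 CPM in fetal cells and 567 CPM in SI WT cells, and the tight junction scaffold Tjp1 had 286 CPM in fetal cells and 53.8 CPM in SI WT cells.

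Both cultures share the genotype WT. Stk11 had 16.1 CPM in the fetal library, 9.13 in the Cys, 12 in the Bud, 14.2 in the het and 20.4 CPM in the SI WT library, and was within 2-fold between fetal and SI WT cells, with a log2 ratio of -0.22 by CPM and 0.24 by spike-in scaling. The labels do not say which part of the gene is deleted in the Lkb1 lines, so a 3' tag is no check of their genotypes. Of 16 measured genes of the complex and its kinases, 3 were higher and 2 lower by CPM, near the shares of 19.5% and 14.3% among all genes, and 5 were higher and none lower by spike-in scaling. Nuak2, a kinase that is also a YAP target, was 4.2-fold higher, with 58.2 CPM in fetal cells and 13.9 CPM in SI WT cells. Prkaa2 and Prkag2, subunits of AMPK, were 2.36-fold and 2.34-fold lower by CPM, with 12.6 CPM in fetal cells and 29.8 CPM in SI WT cells, and 15.5 CPM in fetal cells and 36.3 CPM in SI WT cells.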

How the data were processed

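For each plate the authors deposited raw UMI counts per gene and well, with no normalization, and these were the basis of every value. Their transcript tables hold estimated counts, deposited as UMI counts corrected for identifier collisions, and served as an alternative. Per the submitters' processing notes, the tools were STAR 2.6.1, featureCounts 1.5.2 and Seurat 4.1.0 on GRCm38. The sources used here do not give how strand was treated or how reads with several matches were counted, so close paralogs and overlapping genes are uncertain.

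Spike-in (ERCC) rows were dropped, UMIs were summed over kept wells and scaled to CPM of the library total. A gene was measured with at least 50 UMIs over both libraries and called at a CPM ratio of at least 2 either way. A gene at 0 in one library was set to 3 UMIs there, which makes its fold a bound. Log2 ratios used CPM plus 10 in both libraries, and so understate the change of low genes. Ratios have exact conditional binomial 95% intervals, and a share of 0 is given with the limit of 3 counts and the exact Clopper-Pearson bound, all for counting error only. With 1 library per group no test was made and no p-value is given. No doublet caller was run, because wells held sorted single cells, and cells were not clustered.

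The 189 named genes are the 15 largest and 15 smallest log2 ratios (ribosomal, Gm, Rik and spike-in genes left out), up to 5 members per list, ranked by the size of the log2 ratio among those reaching 20 CPM in a library, and 24 canonical genes. Some of these are not reported here. Other genes named in the text were chosen after their values were seen. Members and the 45 lists were chosen with earlier results of these data known. Gene positions are from GENCODE M21 (GRCm38) and promoters from RefSeq. Analyses used Python 3.11.15, numpy 2.4.6, pandas 2.3.3, scipy 1.17.1 and, for TMM factors as an alternative scaling, edgeR 4.0.16 on the deposited counts.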

Additional observations from a re-analysis of the deposited data

How the results depend on the processing

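Directions were kept more often than sizes. Of the 163 named genes that were called, all 163 kept their direction under every alternative that kept the SI WT library, 162 with the het and 157 with the Bud library in its place, where Igf2bp3 turned and Chga, Chgb, Fev, Insm1 and Tph1 had no UMI in either library. With Bud, 19 of the 163 were not called. Still called were 140 by spike-in scaling, 148 with het, 160 with equal weight for every cell, 161 without each gene's dominant cell, which lost Chga and Chgb, and 162 with TMM scaling or with the median of gene ratios set to 1, which lost Krt19. Of the 189 named log2 ratios, 150 moved beyond their counting interval by spike-in scaling, 133 with a pseudocount of 1 CPM, 118 with het and 112 of 185 with Bud, and 14 of 24 shares of cells moved when thinned to 1000 UMIs. Spike-in scaling, chosen after seeing the data, gave 4111 genes higher and 733 lower. With at least 1 UMI over both libraries there were 3638 higher and 3357 lower, since rare genes then enter. A 1.5-fold limit with the interval excluding 1 gave 3017 higher and 2383 lower. Direction turned for Igf2bp3, whose log2 ratio was 0.70 against het and 0.53 against Bud, and the cause was not tested. The M cell median was 1.26 over 6 measured genes and -0.052 with at least 1 UMI over both libraries. There Spib entered as a further gene of the 7, and the median fell on Marcksl1, whose own log2 ratio is -0.052. The use of Bud as the comparator was also chosen after seeing the data.

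No paired analysis was possible because each group was 1 library and the result comes from no test. For the same reason leaving out replicates was not an option. Culture, plate, line and sex cannot be told apart from the fetal label, intervals cover counting error only, and genes under about 50 UMIs over both libraries were not compared.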

Other observations

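A further 7 lists were chosen after values had been seen, so their counts are descriptions. Developmental transcription factors were higher in fetal cells in 16 of 19 measured members. Sox17, a factor of definitive endoderm, had 167 CPM in the fetal library, 60.1 in the Cys, 0.251 in the Bud, 0 in the het and 0 CPM in the SI WT library. Hhex, a homeobox factor of foregut, liver and thyroid, had 151 CPM in the fetal library, 5.48 in the Cys, 2.51 in the Bud, 2.37 in the het and 1.77 CPM in the SI WT library, and Pax2, best known from kidney and ear, 84.7 CPM in the fetal library, 0 in the Cys, 0 in the Bud, 0 in the het and 0 CPM in the SI WT library. Sox17 was shared with the Cys library, whereas Pax2 was in the fetal library only among the 5. En1 had 55.3 CPM in fetal cells and 0 CPM in SI WT cells, Runx2 115 CPM in fetal cells and 0.252 CPM in SI WT cells and Prrx2 63.4 CPM in fetal cells and 0 CPM in SI WT cells. Tbx3 was the other way, with 0 CPM in fetal cells and 27.8 CPM in SI WT cells. Sox2 and Nkx2-1, factors of foregut and lung, and Trp63, of stratified epithelium, had no UMI in fetal cells.

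WNT ligands and receptors were higher in 11 of 16 measured members and lower in 1. Wnt7b had 221 CPM in the fetal library, 33.9 in the Cys, 0 in the Bud, 0 in the het and 0 CPM in the SI WT library and Wnt10a 169.8 CPM in the fetal library, 9.74 in the Cys, 0.251 in the Bud, 0 in the het and 0 CPM in the SI WT library. The lower one was Wnt3, the ligand that Paneth cells supply to stem cells, with 0 CPM in fetal cells and 16.2 CPM in SI WT cells. Frizzled receptors differed among themselves, with Fzd1 at 97.5 CPM in fetal cells and 1.51 CPM in SI WT cells and Fzd5, the receptor of crypt stem cells, at 27.3 CPM in fetal cells and 48.5 CPM in SI WT cells.

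Retinoid genes were higher in 8 of 14 measured members and lower in 2. The retinol importer Stra6 had 413 CPM in the fetal library, 11.8 in the Cys, 0 in the Bud, 0 in the het and 0.252 CPM in the SI WT library. Enzymes that make retinoic acid went opposite ways: Aldh1a2 had 132 CPM in the fetal library, 0 in the Cys, 0 in the Bud, 0 in the het and 0 CPM in the SI WT library, and Aldh1a1 16.2 CPM in the fetal library, 702 in the Cys, 106 in the Bud, 379 in the het and 99.9 CPM in the SI WT library. Caveolar genes were higher in 7 of 8 measured members, with 152 CPM in fetal cells and 0 CPM in SI WT cells for Cav1, the main coat protein of caveolae, and 289.8 CPM in fetal cells and 4.54 CPM in SI WT cells for Ptrf. Chemokine genes were higher in 6 of 9 and lower in 2, the lower ones being Ccl9 and Ccl25, of which Ccl25, which draws lymphocytes to the gut, had 7.34 CPM in fetal cells and 505 CPM in SI WT cells.

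Serine and one-carbon enzymes were lower in 11 of 17 measured members and higher in none by CPM, and in 8 lower and 2 higher by spike-in scaling. Shmt2 had 121 CPM in fetal cells and 546 CPM in SI WT cells and Mthfd2 19.1 CPM in fetal cells and 146 CPM in SI WT cells. Of 17 brush border genes, 10 were lower and 3 higher. The adhesion protein Cdhr5 and the myosin Myo1a had 0 CPM in fetal cells and 64.1 CPM in SI WT cells and 0.512 CPM in fetal cells and 136 CPM in SI WT cells. The 3 higher ones, Fscn1, Msn and Rdx, are actin-bundling or membrane-linking proteins outside the brush border, and Rdx, radixin, had 165 CPM in the fetal library, 0 in the Cys, 0 in the Bud, 0 in the het and 0 CPM in the SI WT library, so among its relatives fetal cells held Ezr, Msn and Rdx and SI WT cells nearly only Ezr, with 655 CPM in fetal cells and 334 CPM in SI WT cells for Ezr.

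Some defence genes were unevenly spread over fetal cells, while Wfdc2 was in 95.4% of thinned fetal cells. Of 367 thinned fetal cells, 61 held a UMI of the lectin Reg1, and 49.2% of these and 2.94% of the others held Reg3b. Of the 39 cells with Reg3b, 76.9% held Reg1, against 9.45% of the rest. Ppbp went the other way, in 33.3% of the cells with Reg3b and 68.3% of the rest. Over the libraries, Reg1 had 221 CPM in the fetal library, 0 in the Cys, 20.1 in the Bud, 3.55 in the het and 28.8 CPM in the SI WT library, and Reg3b 150.5 CPM in the fetal library, 0 in the Cys, 2.51 in the Bud, 0.237 in the het and 0 CPM in the SI WT library. Reg1 and Reg3b belong to one gene family, so the split of reads between them is uncertain. Among the 44 cells with Cxcl1 and the 49 with Ccl20, 86.4% and 85.7% held Cxcl5, against 56.7% and 56.3% of the cells without. These shares are within 1 library, depend on each gene's level, and have no test.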
